A study of Mus musculus with 45 samples.

Results

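Germinal centers form in a draining lymph node when activated B cells and T follicular helper (Tfh) cells meet in the follicle, so a B cell that becomes a germinal center (GC) B cell and a CD4+ T cell that becomes a Tfh cell enter the same microenvironment from different lineages. The transcriptional shift of the B lineage, GC B minus non-GC B cells, was compared with that of the T lineage, Tfh minus non-Tfh cells, gene by gene in WT mice, and the difference of the 2 differences was tested as an interaction. All 23 WT samples of the 45 RNA-sequencing samples in the series entered the comparison: 6 of GC B cells, 5 of non-GC B cells, 6 of Tfh cells and 6 of non-Tfh cells. The 22 S1PR4-/- samples, which carry a germline S1pr4 deletion (B6.129P2-S1pr4tm1Dgen/J, with 10 or more backcross generations to C57/BL6), had no part in the tests reported for WT mice and served to repeat the comparison.

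WT littermates of both sexes, 8 to 12 weeks old, received 20 µl of an emulsion of incomplete Freund's adjuvant with 50 µg OVA and 5 µg LPS in the hind footpad, and cells were sorted from the draining popliteal lymph node. GC B cells were B220+GL7+Fas+ and non-GC B cells GL7-Fas-, both sorted on day 9. Tfh cells were TCRβ+CD4+PD1+CXCR5+ and non-Tfh cells PD1-CXCR5-, both sorted on day 6. Lineage and day therefore cannot be told apart. The Tfh gate does not show that a cell was inside a GC. Fas, Pdcd1 and Cxcr5 encode proteins used in the sort, so their shifts in the lineage gated on them are no finding. The reference populations are the gate-negative cells of the same reactive node, not naive cells. In bulk RNA a lower level in a sample cannot be assigned to fewer cells of a type or to less RNA per cell.

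The deposited values were RSEM expected counts per gene, 26299429 to 43668027 per WT sample (median 34182357). They were rounded and scaled to sequencing depth with TMM factors (CPM, the usual depth-scaled unit of read counts), and 15101 genes passed the low-count filter. A gene was called changed in a lineage at a Benjamini-Hochberg adjusted p under 0.05 and a fold change over 1.5 (edgeR's quasi-likelihood test), and an interaction at an adjusted p under 0.05. Sums of 12 markers each checked the sorts. B cell markers summed to 8169 to 17687 CPM in the B groups, and T cell markers to 8042 to 10830 CPM in the T groups. B cell marker RNA was also present in Tfh samples, at 169 to 497 CPM against 14.3 to 54.3 CPM in non-Tfh samples (exact permutation test, two-sided, p = 0.00216, n = 6 and 6), or 1.63% to 4.8% of the GC B median. Tfh replicates 1, 2 and 3 had the most. T cell marker RNA in the B groups was at most 0.75% of the non-Tfh median. Plasma cell markers, 8 genes, summed to 4049 to 8924 CPM in GC B and 516 to 865 CPM in non-GC B samples. GC B replicate 6 stood apart from the other GC B samples. It was the lowest of the 6 for 20 of the 32 described genes that rose in both lineages and the highest for 18 of the 29 that fell in both. Without it 1743 genes rose in both, 1696 fell in both, 145 rose in GC B and fell in Tfh cells and 377 did the reverse, close to the counts given below.

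Becoming a GC cell is known to involve rapid division in B cells and, to a lesser degree, in Tfh cells. It is also known to involve loss of the receptors that lead lymphocytes out of the node, and a shared dependence on the repressor Bcl6. Mitotic genes often carry in their promoters a pair of elements, the CCAAT box and the cell cycle homology region (CHR, TTTGAA), while replication genes often carry E2F sites (TTCCCGC). Genes of resting lymphocytes include known targets of the KLF (CACACCC) and FOXO (GTAAACA) factors. The promoters below belong to leading genes of each class described in the next paragraphs and hold at least 1 of these 5 motifs on either strand. They run from 250 bases before to 50 after the start site (RefSeq, GRCm38.p6, 5′ to 3′ on the gene's strand), with the motifs in capitals. The first 4 are mitotic genes that rose in both lineages, Tsc22d3 fell in both, Iqcb1 rose in GC B and fell in Tfh cells, and Wdfy2 did the reverse.
Ube2c, chr2:164769679-164769978, plus strand: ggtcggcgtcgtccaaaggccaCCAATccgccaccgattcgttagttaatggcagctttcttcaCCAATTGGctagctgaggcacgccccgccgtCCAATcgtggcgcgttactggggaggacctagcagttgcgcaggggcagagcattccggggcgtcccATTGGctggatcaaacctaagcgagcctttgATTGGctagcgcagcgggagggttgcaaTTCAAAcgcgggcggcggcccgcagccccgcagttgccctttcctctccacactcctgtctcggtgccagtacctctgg
Kif18b, chr11:102925075-102925374, minus strand: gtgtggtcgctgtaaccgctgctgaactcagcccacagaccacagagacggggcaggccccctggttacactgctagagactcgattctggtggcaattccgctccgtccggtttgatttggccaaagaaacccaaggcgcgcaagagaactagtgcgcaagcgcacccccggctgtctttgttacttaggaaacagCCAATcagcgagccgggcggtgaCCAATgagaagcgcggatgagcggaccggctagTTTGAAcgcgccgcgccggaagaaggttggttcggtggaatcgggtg
Cenpf, chr1:189688037-189688336, minus strand: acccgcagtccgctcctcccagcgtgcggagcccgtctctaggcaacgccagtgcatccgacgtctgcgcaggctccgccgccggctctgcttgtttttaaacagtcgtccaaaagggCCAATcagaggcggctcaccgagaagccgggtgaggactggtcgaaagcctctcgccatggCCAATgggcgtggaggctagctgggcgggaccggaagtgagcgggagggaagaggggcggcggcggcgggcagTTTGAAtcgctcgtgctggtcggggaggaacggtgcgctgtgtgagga
Plk1, chr7:122159185-122159484, plus strand: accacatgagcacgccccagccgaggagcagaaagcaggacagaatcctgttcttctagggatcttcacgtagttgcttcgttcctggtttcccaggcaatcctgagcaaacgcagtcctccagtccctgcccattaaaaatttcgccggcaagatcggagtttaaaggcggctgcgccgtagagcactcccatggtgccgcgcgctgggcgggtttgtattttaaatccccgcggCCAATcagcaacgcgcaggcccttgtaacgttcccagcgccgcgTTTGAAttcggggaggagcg
Tsc22d3, chrX:140548522-140548821, minus strand: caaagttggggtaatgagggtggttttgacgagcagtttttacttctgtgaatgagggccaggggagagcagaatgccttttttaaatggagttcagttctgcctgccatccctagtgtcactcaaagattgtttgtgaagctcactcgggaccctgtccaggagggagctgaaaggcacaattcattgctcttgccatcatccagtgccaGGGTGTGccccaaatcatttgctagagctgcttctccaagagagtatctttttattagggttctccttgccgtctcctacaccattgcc
Iqcb1, chr16:36828150-36828449, plus strand: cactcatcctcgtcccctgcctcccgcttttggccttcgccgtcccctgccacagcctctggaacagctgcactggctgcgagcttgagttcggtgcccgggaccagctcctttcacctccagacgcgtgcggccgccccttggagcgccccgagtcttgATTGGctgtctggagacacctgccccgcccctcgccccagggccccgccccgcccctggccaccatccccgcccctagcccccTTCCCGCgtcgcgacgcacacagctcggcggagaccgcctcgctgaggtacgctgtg
Wdfy2, chr14:62837440-62837739, plus strand: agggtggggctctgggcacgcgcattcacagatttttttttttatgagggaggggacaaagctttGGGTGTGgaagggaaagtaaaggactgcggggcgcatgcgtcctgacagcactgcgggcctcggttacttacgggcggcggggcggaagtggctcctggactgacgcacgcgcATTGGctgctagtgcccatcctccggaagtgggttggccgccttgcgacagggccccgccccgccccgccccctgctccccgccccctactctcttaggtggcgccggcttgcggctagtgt

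Promoters were found for 10358 of the tested genes, with a mean of 1.27 windows per gene, and a gene was counted where any of its windows held the letters. The CHR letters were found for 21% of the genes that rose in both lineages (1.24 windows per gene), against 14.8% of all tested genes, and CCAAT for 50.3% against 42.9%. Both together were found for 12.0% against 5.98%. Of the mitosis and spindle genes 15 of 22 (68.2%) had both. None of these 22 had the E2F letters, which were found for 10 of 20 replication genes (50.0%) against 9.72% of all tested genes. The KLF letters were found for 17.1% of the genes lower in GC B and higher in Tfh cells, against 9.92% of all tested genes, 9.77% of those that rose in both and 10.3% of those that fell in both. The FOXO letters were found for 1.99% to 4.76% of the genes of the 4 classes, against 3.12%. Counted per window instead, over the whole table of 32851 windows, CHR was in 17.9%, CCAAT in 37.4%, E2F in 4.60%, KLF in 7.95% and FOXO in 3.65%. These shares describe letters in a window and were not tested. In Ube2c 2 CCAAT matches on opposite strands overlap.

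Most genes that changed in both lineages changed in the same direction. The B lineage shift called 7021 genes (46.5% of those tested), 3378 higher (22.4%) and 3643 lower (24.1%) in GC B cells. The T lineage shift called 6280 (41.6%), 3437 higher (22.8%) and 2843 lower (18.8%) in Tfh cells. Of the 3965 genes called in both (26.3% of those tested), 3463 (87.3%) went the same way, 1760 up (11.7%) and 1703 down (11.3%). The remaining 502 (3.32%) went opposite ways, 150 higher in GC B and lower in Tfh cells (0.993%) and 352 lower in GC B and higher in Tfh cells (2.33%). Another 3056 genes were called in the B lineage alone and 2315 in the T lineage alone, but the interaction was called for only 1965 and 1335 of these. Across all tested genes the log2 fold changes of the lineages had a Pearson r of 0.479 and a Spearman rho of 0.521, a description over genes, which are not replicates. The sign was the same in 70.7%.

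**Figure D1:**
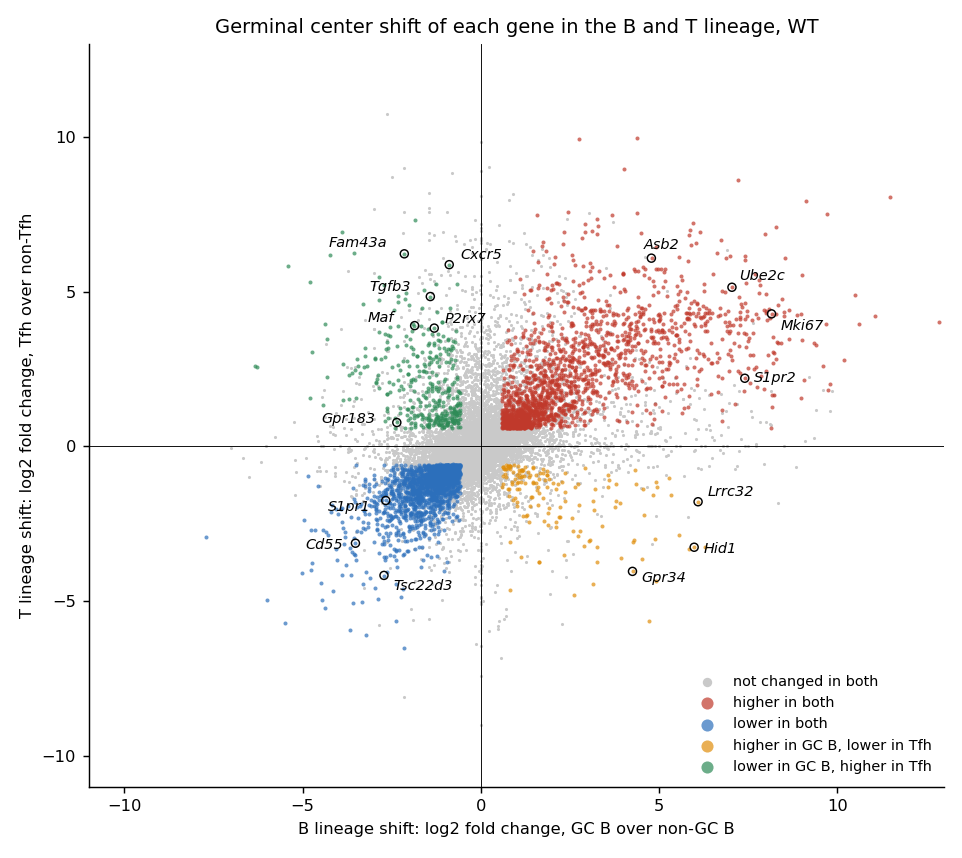
Log2 fold change in the B lineage (x axis, GC B over non-GC B) against that in the T lineage (y axis, Tfh over non-Tfh) for the 15101 tested genes. Colours mark the 1760, 1703, 150 and 352 genes called in both lineages, most of which lie in the upper right and lower left, and circles mark genes described in the text.

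The interaction was called for 6291 genes (41.7%), 3064 above 0 (20.3%) and 3227 below 0 (21.4%). Here a value above 0 means a higher log2 fold change in the B than in the T lineage. Among the genes that rose in both lineages, 669 had a called interaction, and the rise was larger in the B lineage for 526 of them and in the T lineage for 143. Among those that fell in both, 391 had one, with the larger fall in the B lineage for 254 and in the T lineage for 137. For the other 1091 and 1312 genes no difference between lineages was called, which does not show that the shifts were equal. The median log2 fold changes were 2.1 in B and 1.97 in T cells for the genes that rose in both, and -1.32 and -1.15 for those that fell in both. For the opposite classes they were 1.65 and -1.32, and -1.38 and 1.76.

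The same structure appeared in the sample scores. The first principal component, with 56.8% of the variance, separated the lineages. On the second (22.8%) GC B and Tfh samples lay on one side and both references on the other. On the third (7.41%) Tfh and non-GC B samples lay above 0 and GC B and non-Tfh samples below 0, so this axis ran in opposite directions in the lineages.

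**Figure D2:**
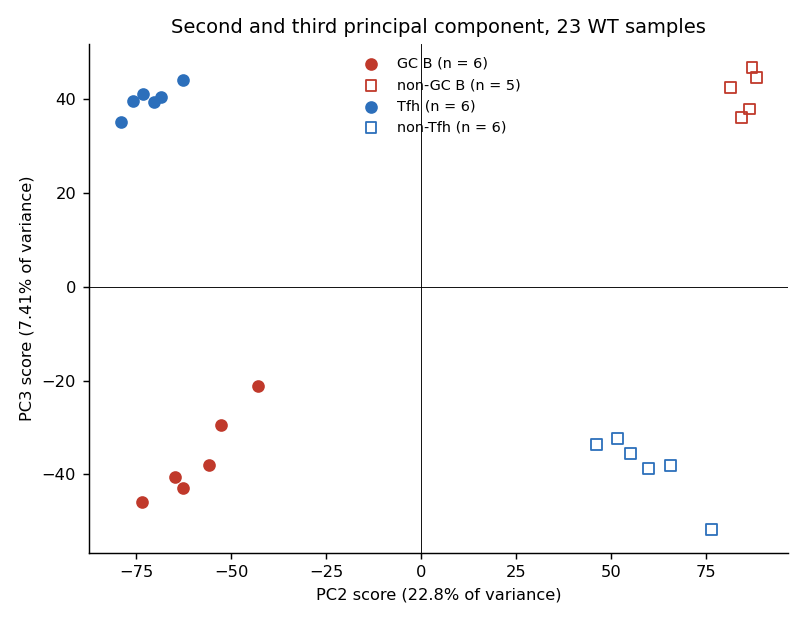
Scores of the 23 WT samples on the second (x axis) and the third (y axis) principal component of log2 CPM, 22.8% and 7.41% of the variance. Filled circles are GC B (red) and Tfh (blue) and open squares their references. GC B and Tfh samples both lie to the left, while the third component puts them on opposite sides of 0.

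Among genes within the level and overlap limits used for naming, those that rose in both lineages were led by the mitotic machinery. All 25 genes of the mitosis and spindle list rose in both, where 11.7% of all tested genes did. Among the top 7 by the smaller of their 2 fold changes were Ube2c, the ubiquitin-conjugating enzyme of the anaphase-promoting complex, Plk1, a mitotic kinase, Cenpf, a kinetochore protein, Kif18b, a spindle motor, and Nusap1, a microtubule-binding protein. Parpbp, which encodes a PARP1-binding protein, and Asb2, a subunit of a cullin ubiquitin ligase, completed the set. Tox2, described below, had a smaller log2 fold change of 6.85, above those of all 7. It was left out because its levels in the lineages were too far apart (ratio 0.0339). Plk1 was at 141 CPM in the lowest, 235 in the median and 327 in the highest GC B sample, and at 0.421, 0.0329, 3.35, 3.18 and 0.464 CPM in the 5 non-GC B samples. In Tfh samples it was at 182, 222 and 283 CPM, and in non-Tfh samples at 3.44, 6.41 and 15.6 CPM, again lowest, median and highest. GC B and Tfh samples covered the same range, while each non-Tfh sample was above every non-GC B sample. The log2 fold change was 7.25 (SE 0.58, adjusted p = 2.6e-10) in the B and 4.83 (SE 0.46, adjusted p = 5.16e-09) in the T lineage, an interaction of 2.42 (SE 0.65, adjusted p = 0.00426, edgeR). Ube2c, whose promoter holds 6 CCAAT matches and 1 CHR match, rose by 7.04 and 5.14 on the log2 scale (interaction 1.90, adjusted p = 0.0195, edgeR). Without the 3 Tfh samples richest in B cell RNA its interaction was 1.80 and missed the threshold (adjusted p = 0.0685, edgeR). Here and below this fit drops 3 of the 6 Tfh samples. A call lost in it therefore cannot be assigned to B cell RNA or to the smaller group. Mki67, the proliferation marker Ki-67, rose by 8.15 and 4.28 (interaction 3.87, adjusted p = 3.65e-05, edgeR).

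Over the whole mitosis list the median log2 fold change was 5.89 in B and 4.27 in T cells, and the interaction was called for 19 of 25 genes, each above 0. The larger fold in B cells stood beside a lower level in the reference. The median log2 ratio of GC B to Tfh level was 0.37, but that of non-GC B to non-Tfh level was -1.55. Replication genes rose in both lineages for 23 of 25, with medians of 2.60 and 2.09. The interaction was called above 0 for 16 and below 0 for 2, and the GC B to Tfh and non-GC B to non-Tfh ratios were 0.69 and -0.05. Rrm2, a subunit of ribonucleotide reductase, rose most (log2 fold changes 6.18 and 3.88, interaction 2.30, adjusted p = 2.83e-05, edgeR). Homologous recombination and Fanconi genes rose in both for 17 of 20, with medians of 2.19 and 2.43. The interaction was called for 5 above and 4 below 0, near the 20.3% and 21.4% of all tested genes. Rad54b, a recombination helicase, rose by 5.36 and 3.85. Its interaction of 1.51 (adjusted p = 0.0222, edgeR) was lost without non-Tfh replicate 1 (1.22, adjusted p = 0.0567). The call was also lost with limma-voom (1.15), with the replicate block (1.43) and without the 3 Tfh samples richest in B cell RNA (1.33). In S1PR4-/- samples the Rad54b interaction was -0.04 (adjusted p = 0.99, edgeR).

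Further genes rose in both lineages with no interaction called, although under some alternatives one was called for Idi1, Cox5a, Asb2, Tigit and Sh2d1b1. Tox2, a transcription factor of Tfh cells, rose by 7.96 and 6.85 on the log2 scale, but its level was 16.5 CPM in GC B and 488 CPM in Tfh cells. Mxd3, a Max partner, rose by 5.45 and 4.52, Slc16a3, a lactate exporter, by 3.61 and 3.63, and Psat1, an enzyme of serine synthesis, by 2.51 and 2.32. Idi1 of the cholesterol pathway rose by 1.92 and 1.39, and Slc29a1, a nucleoside transporter, by 1.24 and 1.31. St6galnac6, a sialyltransferase, rose by 2.06 and 2.65, Cox5a, a subunit of cytochrome oxidase, by 1.15 and 0.92, and Isg20, an exonuclease, by 1.33 and 1.22. Asb2 rose by 4.78 and 6.08 from 0.542 to 15.2 CPM in B and from 1.60 to 108 CPM in T cells. Tigit, an inhibitory receptor, and the SLAM adapter Sh2d1b1 were called as rising in both, but Tigit reached only 0.724 CPM in GC B and Sh2d1b1 0.334 CPM in Tfh cells. Bcl2a1a rose by 2.99 and 2.48 at 1.63 and 0.834 CPM. It is a member of a family of near-identical copies between which reads may be split.

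The leading genes that fell in both lineages included Cd55, a complement-regulating surface protein, Tsc22d3, the glucocorticoid-induced leucine zipper, the scaffold Cnksr3, the splicing-related Prpf40b, Fam84b, and Ifi214, a member of an interferon-inducible family of similar copies. Cd55 was at 34.8, 57.6 and 132 CPM (lowest, median, highest) in GC B and at 769, 723, 718, 744 and 731 CPM in non-GC B samples. It was at 3.64, 11.2 and 20.1 CPM in Tfh and at 86.4, 97.7 and 124 CPM in non-Tfh samples. The samples overlapped in neither lineage, although GC B replicate 6 stood well above the other 5. The log2 fold change was -3.52 (SE 0.34, adjusted p = 5.8e-09) in B and -3.13 (SE 0.34, adjusted p = 3.49e-08, edgeR) in T cells. B cell RNA in Tfh samples could give up to 35.4 CPM of Cd55, a ceiling explained below. Cd55 was at 14.3, 20.1 and 17.0 CPM in Tfh replicates 1, 2 and 3. It was at 8.05, 6.33 and 3.64 CPM in replicates 4, 5 and 6. The part of B cell RNA in these levels was not tested. The log2 fold changes in B and T cells were -2.85 and -2.84 for Cnksr3, -3.48 and -2.73 for Prpf40b, -2.67 and -2.80 for Fam84b and -2.71 and -3.07 for Ifi214. Tsc22d3, with 1 KLF match in the promoter shown, fell by 2.72 in B and 4.17 in T cells. Its interaction of 1.45 (adjusted p = 0.0337, edgeR) missed the threshold in 10 of the 23 fits that each left out 1 sample. The Tfh mean of Tsc22d3, 37.5 CPM, was also under its B cell RNA ceiling of 49.7 CPM.

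The quiescence list fell in both lineages for 8 of 19 tested genes, where 11.3% of all genes did, with medians of -0.81 in B and -0.82 in T cells. The CDK inhibitor Cdkn2c went the other way and rose by 2.81 and 3.66. Among transcription factors Foxp1, which is known to hold lymphocytes at rest, fell by 1.41 and 1.65 on the log2 scale. The survival gene Bcl2 fell by 2.30 and 1.86. Phf1, an accessory subunit of polycomb repressive complex 2, fell by 2.93 and 1.87 with a larger fall in B cells (interaction -1.05, adjusted p = 0.00183, edgeR), while its relative Phf19 rose by 4.85 and 2.40 (interaction 2.45, adjusted p = 4.15e-05, edgeR). Further genes fell in both lineages, each the largest such fall of its list. They were Stat6 of interleukin-4 signalling (-1.33 and -0.64), the NF-kB-inducing kinase Map3k14 (-1.27 and -1.38), the AP-1 subunit Jun (-1.34 and -1.05), the Max partner Mga (-0.97 and -0.82), Dhodh of pyrimidine synthesis (-0.67 and -0.76), the glucose transporter Slc2a3 (-1.22 and -0.72) and the RNA-binding protein Rc3h2 (-0.93 and -0.90, log2 fold change in B and T cells). The same held for Cmah (-1.07 and -1.77), P2rx4 (-1.52 and -0.89), Unc5cl (-1.51 and -1.35), Rgs14 (-0.88 and -0.68) and Oas2 (-2.12 and -2.23). Il7r, the interleukin-7 receptor, fell by 4.61 on the log2 scale in T cells from 644 to 26.4 CPM. In B cells it was near the detection limit (0.322 and 1.47 CPM), and that call was lost without non-GC B replicate 5 (-1.60, adjusted p = 0.0517, edgeR).

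The egress and positioning list was split. Of 24 tested genes, 6 rose in both, 9 fell in both and 3 fell in GC B and rose in Tfh cells, and none did the reverse. Over all tested genes these shares were 11.7%, 11.3%, 2.33% and 0.993%. The 3 were Gpr183, Cxcr5 and Cxcr4. The T rise of Cxcr5 was set by the gate, and the calls of Cxcr4 were lost in some fits, as given below. S1pr1, the receptor that leads lymphocytes out of the node, was at 38.9, 67.8 and 165 CPM in GC B and at 497, 490, 575, 482 and 506 CPM in non-GC B samples. In Tfh samples it was at 323, 396 and 425 CPM and in non-Tfh samples at 1220, 1256 and 1388 CPM. The groups overlapped in neither lineage, and every Tfh sample stayed above every GC B sample. S1pr1 fell by 2.67 (SE 0.23) and 1.75 (SE 0.22) on the log2 scale, a larger fall in B cells (interaction -0.92, SE 0.31, adjusted p = 0.0191, edgeR). Without the 3 Tfh samples richest in B cell RNA this interaction was -0.82 and missed the threshold (adjusted p = 0.0785, edgeR). As above, this loss cannot be assigned to B cell RNA or to the smaller Tfh group. S1pr4 fell by 1.89 and 1.18 (interaction -0.71, SE 0.20, adjusted p = 0.00703, edgeR). Klf2, the factor that drives S1pr1, fell by 2.51 and 1.71, but its interaction of -0.79 (adjusted p = 0.0451, edgeR) missed the threshold in 20 of the 23 fits without 1 sample. Ccr7, the receptor for the T zone chemokines, fell more in T cells (-2.19 and -3.51, interaction 1.32, SE 0.44, adjusted p = 0.0189, edgeR), which without the same 3 samples was 1.35 (adjusted p = 0.0523).

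S1pr2, the receptor that confines cells to the GC, rose in both lineages but to very different levels. It was at 341, 486 and 583 CPM in GC B and at 2.5, 0.758, 7.15, 1.92 and 1.25 CPM in non-GC B samples. It was at 64.5, 74.9 and 85.9 CPM in Tfh and at 13.1, 16.2 and 20.6 CPM in non-Tfh samples. Each population stood apart from the other 3. The log2 fold change was 7.4 (SE 0.39, adjusted p = 2.95e-13) in B and 2.20 (SE 0.28, adjusted p = 4.27e-07) in T cells, an interaction of 5.20 (SE 0.43, adjusted p = 2.03e-09, edgeR). Cxcr3, a receptor for interferon-induced chemokines, rose by 5.79 and 3.19 (interaction 2.61, adjusted p = 0.000191, edgeR). Of the RGS list, inhibitors of G protein signalling, 3 of 12 rose in both (11.7% of all tested genes did), among them Rgs16, which had a mean of only 0.313 CPM in GC B cells. In the guidance list Plxnb2, a plexin, rose by 4.59 and 3.09 (interaction 1.51, adjusted p = 0.0026, edgeR). Its Tfh mean of 6.17 CPM was under the 14.3 CPM that B cell RNA could give. Each ceiling of this kind is that of the Tfh sample with the most B cell RNA, replicate 2 at 4.8%, and is lower in the others. It multiplies that percent of the GC B marker median by the gene's level in the higher B group. The marker median was 10349 CPM in GC B but 16968 CPM in non-GC B samples. For genes higher in non-GC B cells the ceiling is therefore set high. Plxnb2 was at 8.24 and 8.3 CPM in Tfh replicates 4 and 5, which had 1.63% and 2.36%. It was at 2.26 CPM in replicate 1, which had 4.19%. The part of B cell RNA in its rise was not tested.

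Gpr183 (EBI2), the oxysterol receptor that holds B cells at the follicle border, moved in opposite directions. It was at 44.8, 71.3 and 124 CPM in GC B and at 364, 375, 413, 387 and 350 CPM in non-GC B samples. Tfh samples had 397, 493 and 562 CPM and non-Tfh samples 261, 285 and 312 CPM. GC B samples were below all others, and the groups overlapped in neither lineage. It fell by 2.36 on the log2 scale in B cells (SE 0.18, adjusted p = 8.67e-11) and rose by 0.77 in T cells (SE 0.17, adjusted p = 0.000308), an interaction of -3.14 (SE 0.24, adjusted p = 6.26e-10, edgeR). Cxcr5, the follicle-homing receptor, fell by 0.89 in B cells (SE 0.17, adjusted p = 7.83e-05, edgeR), from a mean of 510 to 275 CPM. In T cells, which were sorted on it, it was at 947 CPM against 16.2 CPM. Cxcr4, the dark zone receptor, had log2 fold changes of -0.80 in B and 0.82 in T cells (interaction -1.62, adjusted p = 0.00823, edgeR). Its B call (adjusted p = 0.0433) was lost in 10 and its T call (adjusted p = 0.0351, edgeR) in 6 of the 23 fits without 1 sample, and the samples overlapped in both lineages.

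**Figure D3:**
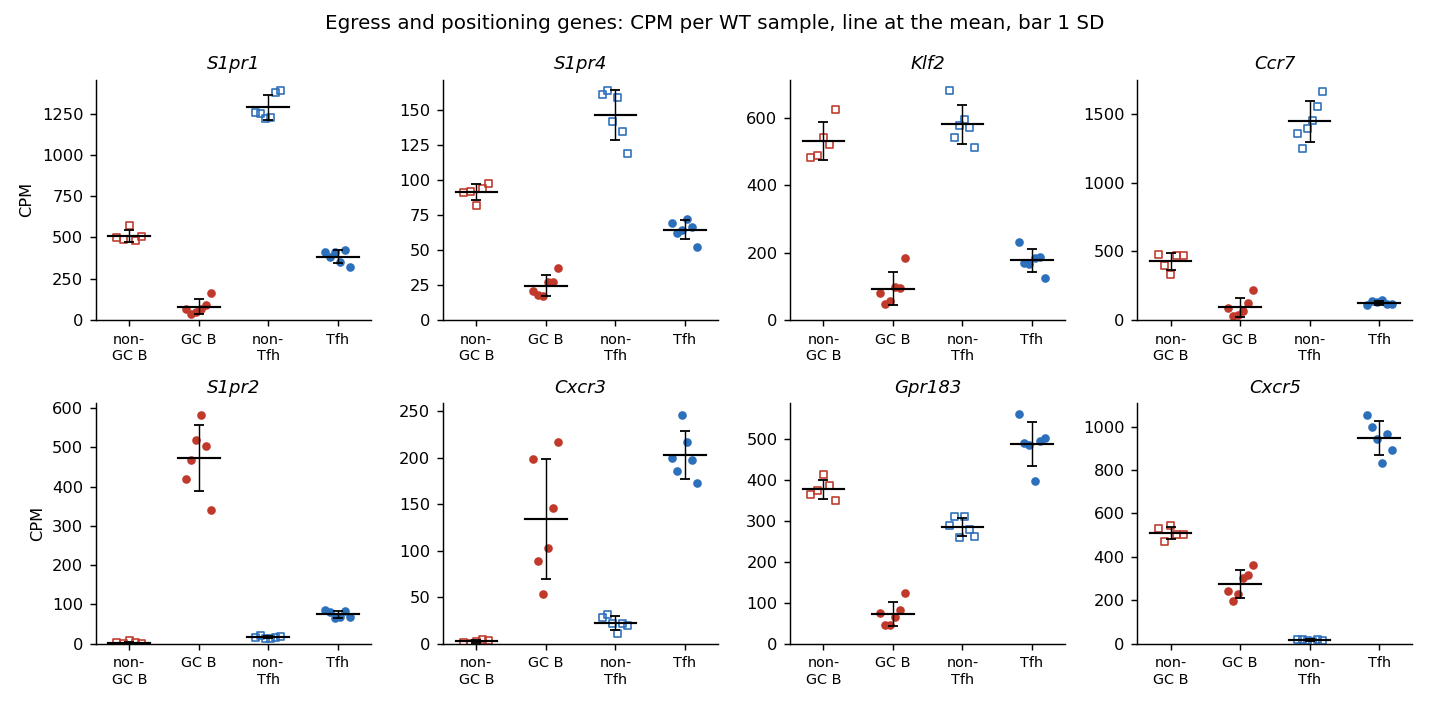
CPM of 8 egress and positioning genes in each WT sample, with a line at the group mean and bars of 1 SD. S1pr1, S1pr4, Klf2 and Ccr7 are lower in GC B and in Tfh samples than in their references, and S1pr2 and Cxcr3 are higher. Gpr183 and Cxcr5 are lower in GC B but higher in Tfh samples, which were sorted on CXCR5.

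Of the 150 genes that rose in GC B and fell in Tfh cells, 75 had no overlap between samples in either lineage. In the reverse class 150 of 352 had none. Of the genes that rose in both 1299 of 1760 had none, and of those that fell in both 1138 of 1703. The share of all tested genes was 26.1%, but calls in both lineages select for such separation, so a higher share is no support. Hid1, which acts in dense core vesicle formation, had the largest interaction of the top 7 among the 150. It was at 29.8, 42.6 and 84.6 CPM in GC B and at 0.391, 1.02, 1.19, 0.464 and 0.607 CPM in non-GC B samples. Tfh samples had 9.28, 11.3 and 16.7 CPM and non-Tfh samples 94.2, 112 and 135 CPM. The highest levels were thus in non-Tfh and the lowest in non-GC B cells, the 2 reference populations. The log2 fold change was 5.98 (SE 0.30, adjusted p = 1.81e-13) in B and -3.26 (SE 0.23, adjusted p = 3e-11) in T cells, an interaction of 9.24 (SE 0.38, adjusted p = 7.49e-14, edgeR).

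Lrrc32 (GARP), which presents latent TGF-beta on the cell surface, was at 19.0, 23.8 and 34.6 CPM in GC B and at 0.481, 0.165, 0, 0 and 1.25 CPM in non-GC B samples. It was at 14.6, 19.0 and 26.7 CPM in Tfh and at 29.3, 76.7 and 87.2 CPM in non-Tfh samples. GC B and Tfh samples met in the same range from opposite sides. The interaction was 7.89 (SE 0.63, adjusted p = 1.2e-09, edgeR). Lrrc32 is also on the list of regulatory T cell genes, which summed to 792 to 1268 CPM in Tfh and 498 to 950 CPM in non-Tfh samples. The part of such cells in its fall was not tested. Gpr34, a lysophosphatidylserine receptor, was at 7.47, 15.6 and 37.5 CPM in GC B and 1.17, 0.296, 1.90, 1.19 and 0.536 CPM in non-GC B samples. In Tfh samples it was at 0.114, 0.609 and 1.64 CPM and in non-Tfh samples at 7.29, 11.3 and 19.4 CPM. Its log2 fold changes were 4.25 and -4.04 (interaction 8.30, SE 0.74, adjusted p = 5.75e-09, edgeR).

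Idh2, the mitochondrial NADP-dependent isocitrate dehydrogenase, had the smallest SE of the 7. It was at 93.4, 98.8 and 131 CPM in GC B and at 37.7, 37.7, 35.1, 38.2 and 40.0 CPM in non-GC B samples, and at 49.6, 57.6 and 63.4 CPM in Tfh and 118, 130 and 142 CPM in non-Tfh samples. It rose by 1.47 (SE 0.09) on the log2 scale in B and fell by 1.2 (SE 0.08) in T cells, an interaction of 2.67 (SE 0.12, adjusted p = 1.5e-13, edgeR). Iqcb1, a ciliary protein whose promoter is printed above, rose by 1.12 and fell by 1.16. The homeobox gene Meis3 rose by 1.47 and fell by 1.14, and Rcn1, a calcium-binding protein of the endoplasmic reticulum, rose by 1.02 and fell by 1.79. The interactions of these 3 were 2.28, 2.61 and 2.81.

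From the pathway lists, Bcl2l11 (BIM) and Bbc3 (PUMA), both of which promote apoptosis, were in this class. Bcl2l11 rose by 1.01 in GC B and fell by 1.36 in Tfh cells (interaction 2.37, SE 0.22, adjusted p = 1.4e-08, edgeR), and Bbc3 rose by 1.58 and fell by 1.40 (interaction 2.98, adjusted p = 2.55e-07, edgeR). The cyclin gene Ccnd2 rose by 1.05 and fell by 1.01 (interaction 2.06, adjusted p = 2.48e-06, edgeR), and its B samples overlapped. E2f5 rose by 0.74 and fell by 0.64, and Tgfbr1, a TGF-beta receptor, rose by 0.70 and fell by 0.98. Efnb1, the ephrin-B1 ligand, rose by 4.36 and fell by 1.21, but was at 1.5 and 3.47 CPM in the T groups. Its B cell RNA ceiling was 2.92 CPM. Cd86, a costimulatory ligand, rose by 1.24 in GC B cells and fell by 0.65 from 8.99 to 5.71 CPM in Tfh cells, where B cell RNA alone could account for up to 8.54 CPM. The call of E2f5 in T cells was lost without non-Tfh replicate 4 (-0.57), and that of Cd86 without Tfh replicate 1 (-0.57) or non-Tfh replicate 2 (-0.58), since the fold change was then under 1.5. Without the 3 Tfh samples richest in B cell RNA Cd86 had -0.49 (adjusted p = 0.0748, edgeR).

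**Figure D4:**
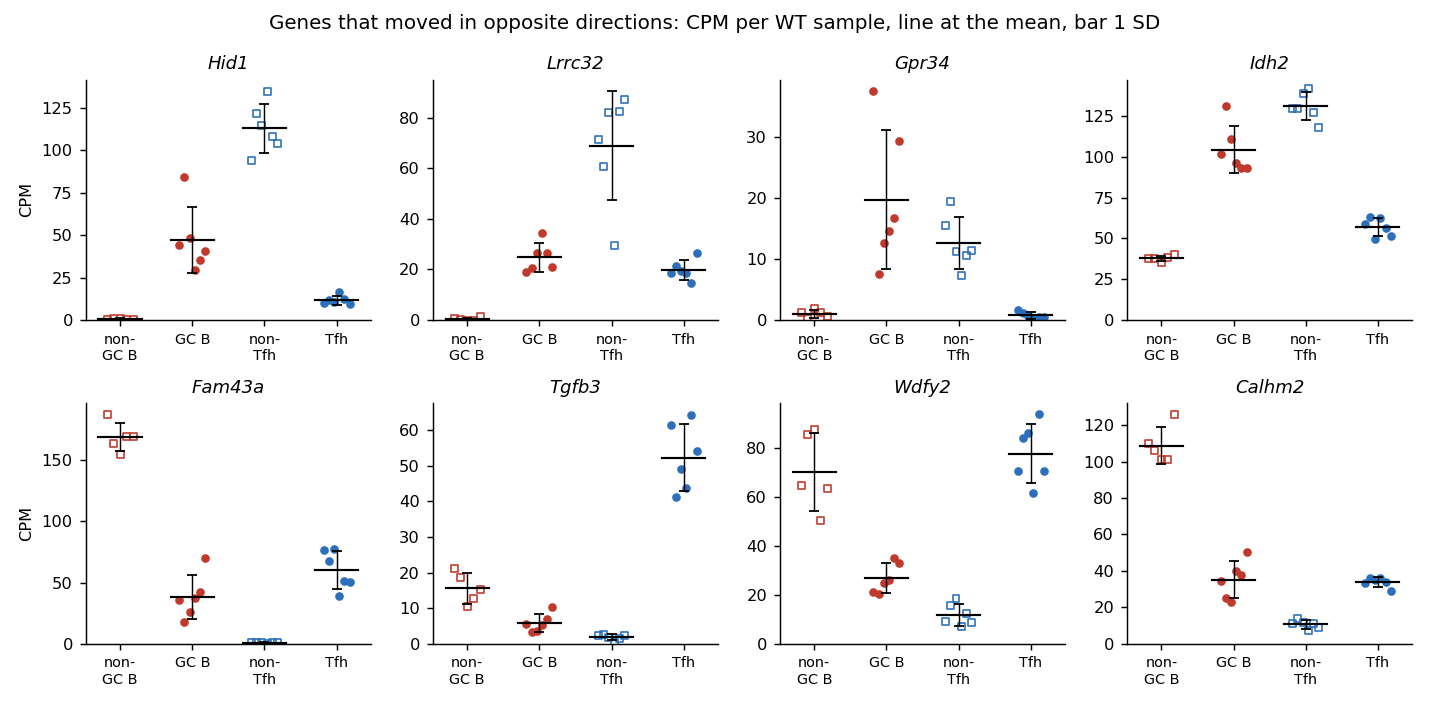
CPM of 8 genes that moved in opposite directions in each WT sample, with a line at the group mean and bars of 1 SD. The upper 4 genes are higher in GC B and lower in Tfh than in their references, the lower 4 the reverse, and in each panel the samples overlap in neither lineage.

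The 352 genes that fell in GC B and rose in Tfh cells need to be read beside the B cell RNA in the Tfh samples. In 114 of them the higher T group was below 0.1 of the level of the higher B group, against 10 of the 150 in the reverse class. They included 5 of the 12 B cell markers and 8 of the 10 MHC class II genes. After subtracting from each sample the share of the other lineage that its markers gave, 257 of the 352 still had a fold change over 1.5 in both lineages, as did 149 of the 150 in the reverse class, 1622 of the 1760 that rose in both and 1701 of the 1703 that fell in both. The subtraction of B cell RNA used the level of the higher B group, as the ceilings did. It may therefore have taken too much from genes higher in non-GC B cells. Of the genes that rose in both, 168 had a higher T group below 0.1 of the level of the higher B group. Without Tfh replicates 1, 2 and 3 the class lower in GC B and higher in Tfh cells held 271 genes, in a fit that also had fewer Tfh samples. The 7 leading genes were chosen with the higher T group at 0.1 or more of the higher B group, which by itself puts their Tfh mean above 4.8% of the B level.

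Fam43a, a gene of little-known function, led the class. It was at 17.9, 36.4 and 69.7 CPM in GC B and at 187, 164, 155, 169 and 169 CPM in non-GC B samples. It was at 39.3, 59.3 and 77.3 CPM in Tfh and at 0, 0.943 and 1.09 CPM in non-Tfh samples, so it was all but confined to Tfh cells within the T lineage. The log2 fold change was -2.15 (SE 0.30, adjusted p = 1.48e-06) in B and 6.22 (SE 0.38, adjusted p = 4.19e-12) in T cells, an interaction of -8.37 (SE 0.49, adjusted p = 8.14e-12, edgeR). Tgfb3, a TGF-beta isoform, was at 3.37, 5.34 and 10.3 CPM in GC B and 21.1, 18.5, 10.4, 12.6 and 15.2 CPM in non-GC B samples. In Tfh samples it was at 41.1, 51.6 and 64.3 CPM and in non-Tfh samples at 0.399, 1.98 and 2.67 CPM. The B groups only just failed to meet, while the T groups were far apart (interaction -6.25, SE 0.46, adjusted p = 2.54e-10, edgeR).

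Wdfy2, an endosomal protein, fell by 1.39 in B and rose by 2.71 in T cells (interaction -4.10, SE 0.30, adjusted p = 2.16e-10, edgeR), and its promoter, printed above, holds 1 KLF and 1 CCAAT match. Calhm2, a channel subunit, fell by 1.63 and rose by 1.67, and GC B and Tfh cells had means of 35.1 and 33.9 CPM. Slc26a11, an anion transporter, fell by 2.00 and rose by 1.49. Mrgpre, an orphan receptor, fell by 1.42 and rose by 3.03, and Arhgap26, a GTPase-activating protein, fell by 1.37 and rose by 1.94. The interactions of these 4 were -3.30, -3.49, -4.45 and -3.31, each with an adjusted p of 3.7e-09 or less (edgeR).

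Among contact and costimulation genes 4 of 27 fell in GC B and rose in Tfh cells, 1 did the reverse, 5 rose in both and 1 fell in both, and the interaction was called for 5 above and 13 below 0. All tested genes gave 2.33%, 0.993%, 11.7% and 11.3% for the classes, and 20.3% and 21.4% for the interaction. The inhibitory receptor Btla fell by 1.22 and rose by 0.99 (interaction -2.21, adjusted p = 3.81e-08, edgeR). Cd200, an inhibitory ligand, fell by 2.06 and rose by 1.2 (interaction -3.25, adjusted p = 1.36e-09, edgeR). Cd40 fell by 0.79 and rose by 3.17, but its Tfh mean of 3.77 CPM was under its B cell RNA ceiling of 7.10 CPM. That ceiling rests on the non-GC B level and is set high. Lag3 was at 0.0992 and 0.387 CPM in the B groups, and its B call was lost without non-GC B replicate 5 (-1.28, adjusted p = 0.137, edgeR). CD8 and NK markers summed to 1.26 to 68.1 CPM in non-GC B samples, with a median of 1.91. The part of CD8 and NK cells in the Lag3 and Fasl calls was not tested. Fasl, a product of such cells, was called as falling in both lineages, from a non-GC B mean of 0.738 CPM, and its B call was lost without non-GC B replicate 5 (-1.73), non-GC B replicate 4 (-1.75) or GC B replicate 1 (-2.08).

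Among germinal center transcription factors 9 of 36 rose in both, 3 fell in both and 3 fell in GC B and rose in Tfh cells. The interaction was called for 7 above and 17 below 0. The shares of all tested genes were 11.7%, 11.3% and 2.33%, so the fall in both was no more frequent than in general, and 20.3% and 21.4% for the interaction. Nfatc1, a calcium-regulated factor, was at 178, 230 and 288 CPM in GC B and 476, 520, 481, 382 and 438 CPM in non-GC B samples. In Tfh samples it was at 931, 1053 and 1277 CPM and in non-Tfh samples at 284, 330 and 340 CPM. It thus fell by 1.01 and rose by 1.75 on the log2 scale with no overlap in either lineage (interaction -2.75, adjusted p = 2.78e-12, edgeR). Maf, a Tfh factor, rose by 3.90 in T cells, and its fall in B cells was from 0.563 to 0.160 CPM. Hhex fell by 2.11 in B cells, and its 3.05 CPM in Tfh cells were under its B cell RNA ceiling of 10.8 CPM. That ceiling rests on the non-GC B mean of 226 CPM, while the GC B mean was 52.2 CPM. The part of B cell RNA in its rise was not tested. Bcl6 was called in T cells (1.74, SE 0.15). In GC B cells the log2 fold change was 0.57 (SE 0.15, adjusted p = 0.00248), just under the fold threshold, and the interaction was -1.17 (adjusted p = 0.000107, edgeR). The B shift passed both limits with DESeq2 (0.62), the replicate block (0.59) and each lineage fitted alone (0.64), and without any 1 of 5 samples (up to 0.68). In S1PR4-/- mice it was called in both lineages. Prdm1 (Blimp-1) rose by 3.81 in GC B cells and had 0.52 (SE 0.40, adjusted p = 0.259, edgeR) in T cells. It is 1 of the 8 plasma cell markers given above, so their higher sum in GC B samples is not independent of it. That sum was also higher in Tfh (286 to 664 CPM) than in non-Tfh samples (118 to 165 CPM). Myc fell by 1.13 in T cells and had -0.36 (SE 0.16) in B cells.

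Cytokine receptors and signalling genes added to the class. Ifnar2, a type I interferon receptor subunit, fell by 1.15 and rose by 0.72, Stat4 fell by 1.5 and rose by 0.85, and Nfkbiz, an atypical IκB protein, fell by 1.41 and rose by 0.86. In the NF-kB list 13 of 17 genes were lower in GC B cells (24.1% of all tested genes were) and 2 in Tfh cells (18.8%). The interaction was called below 0 for 14 and above 0 for 1, where 21.4% and 20.3% of all tested genes were. Bcl3 fell by 1.46 and rose by 0.73, but the T call was lost without Tfh replicate 6 (0.61), non-Tfh replicate 2 (0.62) or non-Tfh replicate 4 (0.61). In the interferon-stimulated list 19 of 25 genes were lower in GC B cells, and 7 higher and 4 lower in Tfh cells. Of all tested genes 24.1% were lower in GC B, 22.8% higher and 18.8% lower in Tfh cells, so the Tfh counts were near the background. The interaction was called below 0 for 14 and above 0 for 1, against 21.4% and 20.3%. Mx1, Oas3, Rsad2 and Ifih1 fell by 1.34, 1.2, 1.91 and 1.26 in GC B and rose by 2.83, 1.77, 2.18 and 0.90 in Tfh cells. GC B and non-GC B samples overlapped for all 4 of these genes, and the B calls of Mx1 (-0.88, adjusted p = 0.111) and Rsad2 (-1.23, adjusted p = 0.0786, edgeR) were lost without non-GC B replicate 4.

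Purinergic and glycan genes supplied further members. P2rx7, the ATP-gated channel, rose by 3.82 in Tfh cells to 262 CPM and fell by 1.31 in GC B cells from 3.39 to 1.38 CPM (interaction -5.13, adjusted p = 3.78e-09, edgeR). Adora2a, an adenosine receptor, fell by 1.5 and rose by 0.67. Dpp4 (CD26) fell by 2.42 in GC B cells, and its T value of 0.61 lost the call in 8 of the 23 fits without 1 sample. Gcnt1, which builds core-2 O-glycans, fell by 0.70 and rose by 3.73, St3gal1, a sialyltransferase of the same chains, fell by 0.68 and rose by 1.33, and the sialidase Neu3 fell by 0.69 and rose by 1.32. Their B calls were the weak side. That of Gcnt1 (-0.63, adjusted p = 0.0512, edgeR) and that of St3gal1 (-0.50) were lost without non-GC B replicate 3, and that of Neu3 without GC B replicate 4 (-0.57) or non-GC B replicate 2 (-0.53). Jarid2, a polycomb cofactor, fell by 1.36 and rose by 0.70, and Bnip3, a mitophagy receptor, fell by 0.95 and rose by 1.06. Scd1, a fatty acid desaturase, fell by 1.63 from 1186 CPM in B cells. Its 9.95 CPM in Tfh cells were under its B cell RNA ceiling of 57 CPM, which rests on the non-GC B level and is set high. Without the 3 Tfh samples its T call was lost (1.21, adjusted p = 0.0843, edgeR).

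Some genes shifted in one lineage while the other had a log2 fold change within 0.25 of 0, at 10 CPM or more in all 4 groups. In the B lineage the largest interactions were those of Kcnn4, a calcium-activated potassium channel, Rnf144a, Clec2i, Ssbp3 and Mtmr14. Kcnn4 was at 167, 181 and 295 CPM in GC B and 19.4, 25, 21.4, 16.0 and 19.2 CPM in non-GC B samples, but at 468, 496 and 558 CPM in Tfh and 502, 554 and 606 CPM in non-Tfh samples. It rose by 3.31 (SE 0.14) in B cells and had -0.13 (SE 0.11, adjusted p = 0.321) in T cells (interaction 3.44, SE 0.17, adjusted p = 1.21e-12, edgeR). Ssbp3 and Mtmr14 rose by 2.27 and 2.32, and Rnf144a and Clec2i fell by 3.03 and 2.72 in GC B cells. In the T lineage Bach2, a repressor that restrains effector differentiation, was at 7.63, 10.9 and 15.4 CPM in Tfh and at 129, 143 and 155 CPM in non-Tfh samples. It was at 239, 273 and 325 CPM in GC B and at 279, 264, 262, 257 and 287 CPM in non-GC B samples, which overlapped. The interaction was 3.66 (SE 0.17, adjusted p = 3.96e-13, edgeR). The Tfh mean of Bach2, 11.7 CPM, was under its B cell RNA ceiling of 13.4 CPM, and the part of that RNA was not tested. Hif1a, the oxygen-regulated factor, rose by 2.62 (SE 0.11) in Tfh cells to a mean of 1384 CPM and had -0.07 (SE 0.10, adjusted p = 0.583) in B cells, an interaction of -2.69 (adjusted p = 2.82e-12, edgeR). Stx11, a syntaxin of lytic granules, Scpep1 and Litaf rose by 4.04, 2.75 and 3.06 in Tfh cells.

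For ribosomal proteins the interaction was called above 0 for 34 of 35 genes, where 20.3% of all tested genes were. The shifts themselves were small, with medians of 0.39 in B and -0.18 in T cells, and 9 rose in GC B cells and 3 fell and 1 rose in Tfh cells. Rpsa alone was called in both (0.66 and 0.68), and its B call was lost without non-GC B replicate 4 (0.58). Reads of these genes may be shared with their many processed copies. Ribosome biogenesis genes had an interaction above 0 for 22 of 30 (medians 0.12 and -0.24), and respiratory chain genes for 26 of 30 (medians 0.91 and 0.39). One-carbon and nucleotide synthesis genes had it for 13 of 22 (medians 0.84 and 0.36). No gene of these 4 lists had an interaction called below 0. In the glycolysis and hypoxia list 11 of 25 rose in both, 2 fell in both and 1 fell in GC B and rose in Tfh cells, with an interaction above 0 for 4 and below 0 for 13. All tested genes gave 11.7%, 11.3% and 2.33% for these classes, near which the last 2 class counts lie. For the interaction they gave 20.3% above and 21.4% below 0. G1 cyclins, CDKs and E2F factors rose in both for 11 of 20, and Ccna2 rose by 7.28 and 4.61. The signs of the interaction medians of these lists held under all 5 scalings.

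**Figure D5:**
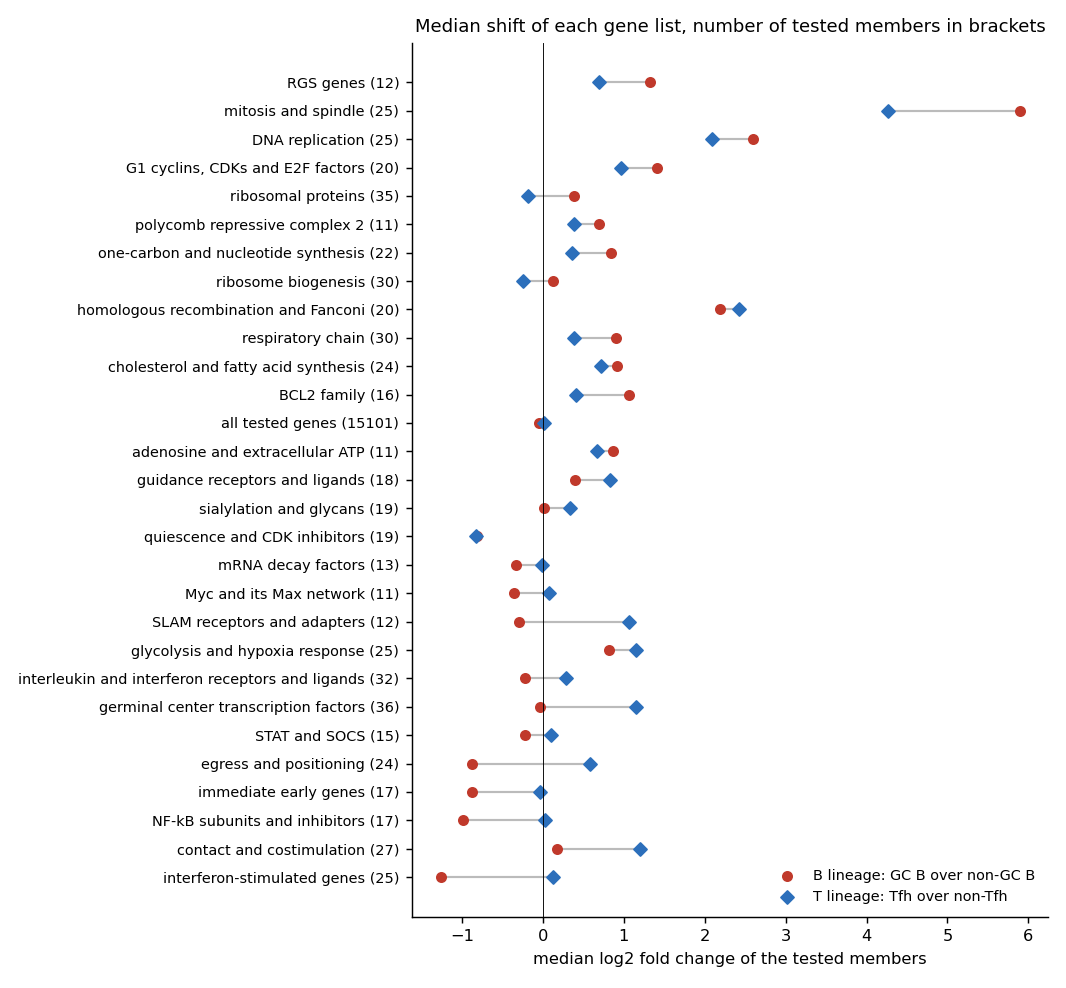
Median log2 fold change of the tested members of each of 28 gene lists and of all tested genes, in the B lineage (red circles) and in the T lineage (blue diamonds), ordered by the median interaction. Mitosis and replication genes lie far to the right in both lineages, while ribosomal protein medians are 0.39 and -0.18 and interferon-stimulated medians -1.26 and 0.13.

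The classes set in WT mice were then looked up in the S1PR4-/- samples, which had no part in choosing them. Of the genes that rose in both lineages, 1427 of the 1747 tested there were in the same class (81.7%), against 12.5% of all genes tested in these samples. Of those that fell in both, 1251 of 1690 were (74.0%, against 10.1%). Of those higher in GC B and lower in Tfh cells, 102 of 150 were (68.0%, against 1.14%), and of those lower in GC B and higher in Tfh cells, 212 of 346 (61.3%, against 2.17%). Both signs were the same in 98.1%, 98.6%, 94.0% and 92.8%. The interaction had the same sign in 6098 of 6256 genes, and 4595 (73.4%) also passed the threshold. Of the 123 described genes 104 were in the same class, and of the 28 leading genes, chosen for large shifts, 27, the exception being Rcn1, which was called in T cells alone. Of the opposite-direction genes from the pathway lists, E2f5, Efnb1, Adora2a, Oas3 and Ifih1 were called in B cells alone, and Cxcr4, Cd40, St3gal1 and Neu3 in T cells alone. Nfkbiz and Bcl3 were also called in B cells alone, with T shifts of -0.08 and -0.23 on the log2 scale, so their higher level in Tfh cells was not seen again. The rest of the 19 were Sh2d1b1, Slc2a3, Rpsa, Dhodh, Isg20, S1pr4 and Bcl6. The interactions of Hid1, Lrrc32 and Gpr34 were 9.57, 9.16 and 6.72 there, and those of Fam43a, Gpr183 and Tgfb3 were -8.19, -3.77 and -5.01. S1pr4 itself, deleted in these mice, had an interaction of -1.49 (adjusted p = 0.152, edgeR). B and T cells of these mice were also sorted on different days, so that limit is shared. Marker sums were taken in WT samples only, so B cell RNA in the S1PR4-/- Tfh samples was not measured. Its part in the repeat of the class higher in Tfh cells was not tested. Cd40, Hhex and Scd1, under their ceilings in WT Tfh cells, had T shifts of 3.81, 2.96 and 6.10 there.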

How the data were processed

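RNA was sequenced from GC B, non-GC B, Tfh and non-Tfh cells of WT and S1PR4-/- mice. The authors deposited expected counts per gene, made per the labels and methods with cutadapt 2.10, STAR 2.5.3, Picard and RSEM 1.3.0 on mm10. The table's 55450 genes match GENCODE M21 by symbol for 55423, 27 symbols are written as dates, 111 are repeated, and 8.83% of values are not whole. The library kit was stranded but the counting strand was not given in the sources used here, so overlapping antisense genes are uncertain. Ambiguous reads were shared between near-identical copies by estimation.

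Expected counts were rounded and genes kept by filterByExpr. One edgeR 4.0.16 quasi-likelihood fit (R 4.3.3, TMM) held the 4 WT groups of 23 samples, with contrasts for each lineage and for their difference and Benjamini-Hochberg adjustment over 15101 genes. SE was the absolute log2 fold change over the square root of F. Marker sums were compared by exact permutation tests. The fit was tested on simulated data with 200 changed genes. At a fold of 2 it put 60% of same-direction and 56% of opposite genes in the right class, and at a fold of 3 64% and 72%. It called 54.7% and 61.3% of the simulated interactions, and 7.4% of its interaction calls were not simulated. Far more genes were called in the data and the lineages differ in level, so these rates may not hold for the real calls. A gene outside a class may still have changed. The methods give 6 WT and 6 S1PR4-/- mice for the sorts, but neither they nor the labels tie a sample to an animal, so p-values measure the spread between these samples. No samples of a group agreed within sampling noise (chi-square per degree of freedom 20.1 to 190).

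The described genes are 123. From each of the 4 classes they are the 7 with the largest smaller-of-both fold change, among genes at 10 CPM or more in the higher group of each lineage, with that level at least 0.1 of the other lineage and with no overlap of samples. From each lineage they are the 5 with the largest interaction and a log2 fold change under 0.25 in the other. From 28 pathway lists they are members that moved oppositely and the largest rise and fall in both, and 15 further genes were always included. Immunoglobulin and T cell receptor segments and unnamed models were left out. Of the described genes 2 are not reported here. Members and lists were chosen with earlier results of these data known. Alternatives were other scalings, filters and limits, DESeq2 1.42.0, limma 3.58.1 voom, a replicate block, sex, each lineage alone, all 45 samples and each sample left out. Leaving out Tfh replicates 1, 2 and 3 and subtracting other-lineage RNA were chosen after seeing the data. Promoters are RefSeq sequences of GRCm38.p6.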

Additional observations from a re-analysis of the deposited data

Results flagged for a closer look

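Of 492 sets of samples (123 genes in 4 WT groups), 34 had 1 sample whose distance to its nearest neighbour was large for the range of its group (Dixon's criterion), where chance alone gives about 1 in 20. In GC B samples the highest value stood apart for Cd55 132 CPM, Hid1 84.6 CPM, Kcnn4 295 CPM, Litaf 75.4 CPM, Isg20 135 CPM, Adora2a 4.92 CPM and Klf2 184 CPM. In GC B samples the lowest value stood apart for Arhgap26 30.6 CPM and Rad54b 20.3 CPM. In non-GC B samples the highest value stood apart for Tox2 0.241 CPM, Sh2d1b1 0.696 CPM, Tnfsf13b 0.0301 CPM, Stat4 232 CPM, S1pr1 575 CPM, S1pr2 7.15 CPM, Bcl6 169 CPM and Myc 115 CPM. In non-GC B samples the lowest value stood apart for Foxp1 446 CPM and Psat1 20.8 CPM. In Tfh samples the highest value stood apart for Scpep1 81.4 CPM, Litaf 129 CPM, Ccnd2 415 CPM, Maf 121 CPM, Sh2d1b1 0.716 CPM and Bbc3 11.3 CPM. In non-Tfh samples the highest value stood apart for Ifi214 91.9 CPM, E2f5 13.2 CPM, Btla 164 CPM, Sh2d1b1 0.0826 CPM, Bbc3 35.9 CPM, Mx1 3.55 CPM and Adora2a 29.9 CPM. In non-Tfh samples the lowest value stood apart for Fam43a 0 CPM and Phf1 86.6 CPM.

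For 88 of the 123 described genes the B and T shifts differed by the interaction test (adjusted p under 0.05 over 15101 genes, edgeR), where 41.7% of all tested genes did, and the log2 interaction is given for each. Among genes that rose in both lineages these were Ube2c 1.90, Kif18b 2.85, Cenpf 3.06, Plk1 2.42, Rrm2 2.30, Ccna2 2.67, Cdkn2c -0.85, Cxcr3 2.61, Plxnb2 1.51, Tnfsf13b 2.20, Rad54b 1.51, Phf19 2.45, S1pr2 5.20, Mki67 3.87 and Fas 3.28. Among genes that fell in both they were Tsc22d3 1.45, Ccr7 1.32, Il7r 2.43, Stat6 -0.70, Slc2a3 -0.50, Phf1 -1.05, Cmah 0.70, P2rx4 -0.63, S1pr1 -0.92, S1pr4 -0.71 and Klf2 -0.79. Among genes higher in GC B and lower in Tfh cells they were Gpr34 8.30, Hid1 9.24, Lrrc32 7.89, Idh2 2.67, Meis3 2.61, Iqcb1 2.28, Rcn1 2.81, Ccnd2 2.06, E2f5 1.39, Efnb1 5.57, Cd86 1.90, Tgfbr1 1.68, Bcl2l11 2.37 and Bbc3 2.98. Among genes lower in GC B and higher in Tfh cells they were Fam43a -8.37, Calhm2 -3.30, Slc26a11 -3.49, Mrgpre -4.45, Tgfb3 -6.25, Wdfy2 -4.10, Arhgap26 -3.31, Cxcr4 -1.62, Cxcr5 -6.76, Gpr183 -3.14, Maf -5.77, Nfatc1 -2.75, Hhex -5.67, Cd40 -3.96, Btla -2.21, Lag3 -5.85, Cd200 -3.25, Ifnar2 -1.88, Stat4 -2.34, Nfkbiz -2.27, Bcl3 -2.19, Bnip3 -2.01, Scd1 -5.25, Mx1 -4.17, Oas3 -2.97, Rsad2 -4.09, Ifih1 -2.16, Jarid2 -2.05, St3gal1 -2.01, Gcnt1 -4.43, Neu3 -2.01, Adora2a -2.17, Dpp4 -3.02 and P2rx7 -5.13. Among genes called in the B lineage alone they were Kcnn4 3.44, Rnf144a -3.07, Clec2i -2.88, Ssbp3 2.51, Mtmr14 2.45 and Prdm1 3.29. Among genes called in the T lineage alone they were Stx11 -4.11, Bach2 3.66, Scpep1 -2.88, Litaf -2.83, Hif1a -2.69, Bcl6 -1.17, Myc 0.77 and Pdcd1 -3.96. The interactions of Fas, Cxcr5 and Pdcd1 each include a shift set by the sort.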

How the results depend on the processing

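The 7 counts (genes changed in each lineage, the interaction and the 4 classes) stayed within 1.5 times of their values in 262 of 278 recomputations. The others came from stricter or looser limits, which test or admit fewer or more genes by construction. With at least 1 CPM in each group the B lineage called 4547, the T lineage 3568, 1005 genes rose in both, 61 rose in GC B and fell in Tfh cells and 199 did the reverse. At an adjusted p under 0.05 with no fold limit the T lineage called 9445, and the 4 classes held 2859 (up in both), 2970 (down in both), 390 and 643 genes. At a fold over 2 the B lineage called 4643, 886 genes fell in both, and the opposite classes held 92 and 193. The class lower in GC B and higher in Tfh cells held 233 at an adjusted p under 0.01 and 204 with only genes at 0.1 or more of the other lineage's level. Leaving out each of the 23 samples in turn gave 6737 to 7092 genes in the B and 6037 to 6433 in the T lineage, 5961 to 6425 interactions, and 1695 to 1826, 1504 to 1719, 138 to 163 and 323 to 377 genes in the classes (up in both, down in both, higher in GC B, higher in Tfh). DESeq2 gave 158 and 348 genes in the opposite classes and limma-voom 153 and 308. Sex as a covariate gave 6314 interactions.

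Replicate numbers were not counted as pairing the samples, since the deviations of same-numbered samples correlated at 0.00992 to 0.107 in the B and 0.0503 to 0.234 in the T lineage, not all above 0.1. As a hint from the data, 8 of 11 samples correlated best with their own number, and 10 of the 11 pairs were of the same sex. With the replicate number as a block within each lineage 6927 genes were called in the B and 6169 in the T lineage, 6373 interactions, and 142 and 360 genes in the opposite classes. Under this block 354 values of the described genes kept their call and direction, 9 became called, and 4 were no longer called (Fasl B -1.86, Gcnt1 B -0.72, Tnfsf13b interaction 2.14, Rad54b interaction 1.43). The sign changed for the uncalled interactions of Slc16a3 (0.14) and Oas2 (-0.29).

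Sign changes occurred 65 times, in 14 genes, each in a value not called in either fit. Without the 3 Tfh samples richest in B cell RNA the interaction was 0.58 for Cd55, 0.37 for Cnksr3, 0.06 for Rpsa, 0.16 for Rc3h2 and 0.05 for Slc29a1, and the B shift was 0.00 for Stx11 and 0.00 for Hif1a. With TMM within each lineage the interaction was 0.06 for Cnksr3, 0.03 for Slc16a3, 0.05 for Rpsa and 0.04 for Rc3h2, and the B shift 0.00 for Stx11 and Hif1a. With total counts it was 0.01 for Cnksr3, 0.00 for Slc16a3 and Rpsa, and the T shift of Rnf144a was -0.01. With the upper quartile it was 0.00 for Cnksr3, and with limma-voom 0.30 for Fasl and 0.42 for Slc16a3. Over the samples left out, the interaction ranged from -0.03 to 0.94 for Bcl2a1a, -0.17 to 0.20 for Cnksr3, -1.63 to 0.00 for Fasl, -0.08 to 0.37 for Isg20, -0.32 to 0.46 for Oas2 and -0.13 to 0.08 for Rc3h2. It ranged from -0.10 to 0.05 for Rpsa, -1.22 to 3.28 for Sh2d1b1, -0.29 to 0.64 for Slc16a3 and -0.12 to 0.06 for Slc29a1, the T shift of Rnf144a from -0.03 to 0.13, and the B shift of Stx11 from -0.19 to 0.03. The causes were not tested. The interaction of Tnfsf13b (2.20, adjusted p = 0.0486, edgeR, at 0.56 CPM in GC B cells) was lost in 15 of the 23 fits without 1 sample (1.82 to 3.65), and with DESeq2 (2.38), limma-voom (0.86), all 45 samples (2.20), no low-count filter (2.20) and sex as a covariate (2.18). The interaction of Klf2 (-1.10 to -0.66) and the B shift of Cxcr4 (-0.91 to -0.71) lie near the threshold. Genes under about 1 CPM in a lineage, such as Lag3, Fasl and Maf in B cells, are limited by depth.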
